A study of Mus musculus with 47 samples.

Results

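Activity-regulated and immediate early genes were followed as a set of 36 named genes, taken by symbol from the deposited tables of 48795 genes. All 36 were found once in each table, and all 36 passed the filter on low counts that left 19174 genes for testing. The rule takes genes by name, for their known induction by neuronal activity, and uses no measured value, though earlier results of these data were known when the members were chosen.

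Messenger RNA of the cerebral cortex was sequenced from 47 mice aged 6 months, on a C57BL background by the labels. The groups were Q140 x Ccdc82-/- (7 mice), and Q140 x Ccdc82+/-, Q140, Ccdc82-/-, Ccdc82+/- and WT (8 mice each). The Q140 allele is a knock-in that lengthens the CAG repeat of mouse Htt as in Huntington's disease, and the titles give its carriers as heterozygous; Ccdc82+/- and Ccdc82-/- mice have lost 1 or both copies of Ccdc82, which encodes a coiled coil protein. Both sexes were present in every group, 23 females and 24 males in all, and each library was treated as 1 mouse, since every title has its own replicate number. The labels give no treatment and no time of day or behaviour before dissection, so the levels are those of the cortex as it was taken.

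Immediate early genes are transcribed within minutes of strong synaptic input, from signalling through calcium and the ERK kinases to transcription factors such as CREB and SRF that are already bound to DNA. Their products are transcription factors (the AP-1 subunits, the EGR zinc finger proteins, Npas4 and the NR4A receptors), phosphatases and kinases that shut the signal off, and proteins that act at the synapse (Arc, Homer1, Nptx2). A second wave of genes, which needs newly made protein or longer signalling, follows later, and mRNA of many early members is short-lived.

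The promoters of 6 members are shown because the results below turn on these genes: Fos, Junb, Jun and Btg2 were called between the sexes, though several alternatives lost these calls, Egr2 tracked the rest of the set most closely, and Homer1 stood opposite to them in the second pattern of variation between mice. Each is the 250 bases before a RefSeq transcription start (GRCm38.p6), 5′ to 3′ on the gene's strand, with matches to TGACG on either strand (CGTCA on the strand printed) and to the CArG box, the binding sequence of SRF, in capitals. TGACG is a short form of the cyclic AMP response element TGACGTCA bound by CREB, and the full element holds it on both strands.
Fos, chr12:85473640-85473889, plus strand: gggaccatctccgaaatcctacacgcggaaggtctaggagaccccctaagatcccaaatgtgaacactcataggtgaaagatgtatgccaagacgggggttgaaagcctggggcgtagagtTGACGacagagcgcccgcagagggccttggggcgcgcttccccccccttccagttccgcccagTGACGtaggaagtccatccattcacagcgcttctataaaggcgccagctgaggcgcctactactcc
Junb, chr8:84978749-84978998, minus strand: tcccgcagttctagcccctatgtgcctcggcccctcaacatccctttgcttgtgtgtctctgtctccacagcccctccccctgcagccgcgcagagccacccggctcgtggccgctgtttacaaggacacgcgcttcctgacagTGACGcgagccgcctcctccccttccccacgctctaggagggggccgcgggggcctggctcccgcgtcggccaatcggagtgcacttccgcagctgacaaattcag
Jun, chr4:95052223-95052472, minus strand: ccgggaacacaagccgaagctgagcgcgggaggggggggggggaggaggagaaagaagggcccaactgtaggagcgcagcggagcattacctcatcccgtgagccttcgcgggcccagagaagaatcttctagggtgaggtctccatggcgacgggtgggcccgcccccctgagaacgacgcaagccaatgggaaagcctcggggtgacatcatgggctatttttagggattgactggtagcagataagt
Btg2, chr1:134079156-134079405, minus strand: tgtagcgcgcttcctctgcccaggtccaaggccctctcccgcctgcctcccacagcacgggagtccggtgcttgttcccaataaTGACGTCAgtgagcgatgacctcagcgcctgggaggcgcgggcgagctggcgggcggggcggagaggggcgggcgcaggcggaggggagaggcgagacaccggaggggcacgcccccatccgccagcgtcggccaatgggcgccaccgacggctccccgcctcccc
Egr2, chr10:67537680-67537929, plus strand: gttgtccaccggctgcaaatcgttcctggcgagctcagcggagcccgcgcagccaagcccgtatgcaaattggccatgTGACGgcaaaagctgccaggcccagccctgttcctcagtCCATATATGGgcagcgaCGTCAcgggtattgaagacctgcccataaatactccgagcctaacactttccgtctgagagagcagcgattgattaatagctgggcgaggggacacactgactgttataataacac
Homer1, chr13:93303507-93303756, plus strand: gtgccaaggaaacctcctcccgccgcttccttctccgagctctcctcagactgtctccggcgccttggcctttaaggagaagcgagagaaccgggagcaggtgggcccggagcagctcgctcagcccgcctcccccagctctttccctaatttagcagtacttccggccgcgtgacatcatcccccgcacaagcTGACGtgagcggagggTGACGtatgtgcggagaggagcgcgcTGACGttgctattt

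Fos held TGACG 2 times in its 250 bases, Homer1 3 times, Junb 1 time and Jun 0 times. Btg2 held 1 full TGACGTCA, and Egr2 held TGACG 2 times and 1 CArG box. A RefSeq window of 300 bases, which also takes in the first 50 bases after the start, was given for 28 of the 36 members; it was not given for Egr1, Egr3, Dusp4, Sik1, Trib1, Arc, Nptx2 and Ier2. TGACG stood in a window of 19 of these 28 members (67.9%), against 23.0% of all 27025 genes with a window. The full TGACGTCA stood in Maff, Dusp1, Btg2 and Arl4d (14.3%), against 2.03% of all genes, and the CArG box in Egr2 and Dusp5 (7.14%), against 1.81%. The members' windows were richer in G and C, with a median of 63.8% against 52.7% over all windows, and TGACG itself holds CG, so that base composition moves with these shares; its part in them was not tested.

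Total counts per library lay between 43554594 and 61370843. Ccdc82 followed its labels, with 4.70 to 5.83 CPM (counts scaled to library size by TMM) in Q140 x Ccdc82-/-, 10.5 to 13.2 CPM in Q140 x Ccdc82+/-, 13.8 to 16.9 CPM in Q140, 4.64 to 6.30 CPM in Ccdc82-/-, 9.72 to 12.1 CPM in Ccdc82+/- and 14.3 to 19.1 CPM in WT. The counts are of whole genes and do not mark the expanded repeat of Htt. A pair of mice stood apart in the members themselves. WT M1, the male WT mouse numbered 1, had the highest mean log2 level of the 36 members, 0.86 above the mean of all mice, and the highest level of all 47 mice for 22 members. Q140 x Ccdc82+/- F1 had the lowest mean, -0.90, and the lowest level of all for 18 members. Where leaving out 1 of these mice moved a value much, that value is given too.

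On the FPKM scale, which divides by gene length and so allows genes to be ordered, Arc, which encodes a capsid-like protein that trims AMPA receptors from synapses, had the highest median of the members. It ranged from 40.8 to 290.1 FPKM over the 47 mice. Egr1 (77.7 to 238.8 FPKM), Egr3 (49.6 to 164.5 FPKM), Nr4a1 (28.96 to 166.7 FPKM) and Junb (16.3 to 121.7 FPKM) followed, and their ranges overlapped, so that neighbours in this order were not separated. At the other end were Pim1 (0.912 to 2.94 FPKM), Maff (0.224 to 0.916 FPKM) and Atf3 (0.101 to 0.749 FPKM), which rested on 24 to 98 counts for Maff and 11 to 88 counts for Atf3. The members varied far more between mice than most genes: after the mean of each genotype and sex was removed, the median SD of a member was 0.33 on the log2 scale, against 0.10 over all 19174 genes, and 35 of 36 members lay above that median. Egr2 spanned 22.2-fold from the lowest to the highest mouse on the CPM scale, Btg2 14.0-fold and Fos 10.8-fold, whereas Rgs2, a brake on G protein signalling, spanned 1.40-fold. WT M1 and Q140 x Ccdc82+/- F1 widened the variation. Without them the SD on the log2 scale was 0.47 for Egr2 (0.62 with all mice), 0.43 for Btg2 (0.51) and 0.29 for Fos (0.41).

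Among the AP-1 subunits, which pair to form the factor that binds AP-1 sites, Fos (ENSMUSG00000021250, chromosome 12, 85473890 to 85477273, GRCm38) had its lowest, median and highest level at 41.9, 54.4 and 82.7 CPM in Q140 x Ccdc82-/-, at 16.5, 80.5 and 101.5 CPM in Q140 x Ccdc82+/-, and at 43.5, 57.2 and 73.4 CPM in Q140. In mice without Q140 they were 56.5, 65.6 and 93.2 CPM in Ccdc82-/-, 50.3, 63.6 and 99.9 CPM in Ccdc82+/-, and 43.7, 68.6 and 177.3 CPM in WT. All 6 groups overlapped, and the highest value was that of WT M1. Junb (ENSMUSG00000052837, chromosome 8, 84974484 to 84978718), a partner of Fos, had 80.2, 107.4 and 145.6 CPM in Q140 x Ccdc82-/-, 37.4, 139.7 and 174.9 CPM in Q140 x Ccdc82+/- and 75.0, 113.8 and 129.2 CPM in Q140, against 105.7, 122.0 and 151.1 CPM in Ccdc82-/-, 95.5, 115.3 and 173.4 CPM in Ccdc82+/- and 86.0, 124.7 and 280.9 CPM in WT. Its groups overlapped in the same way. For Fosb, Fosl2, Jun, Maff and Atf3, the other subunits, every pair of groups overlapped as well.

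Egr1 (ENSMUSG00000038418, chromosome 18, 34859823 to 34864984), the zinc finger factor also called Zif268, ran at 566.3, 633.3 and 765.7 CPM (lowest, median, highest) in Q140 x Ccdc82-/-, 346.8, 720.2 and 933.6 CPM in Q140 x Ccdc82+/- and 500.1, 673.3 and 814.9 CPM in Q140. In the other groups it ran at 403.4, 783.1 and 844.5 CPM in Ccdc82-/-, 490.3, 664.3 and 756.3 CPM in Ccdc82+/- and 435.4, 782.3 and 1074 CPM in WT. No group stood apart. Npas4 (ENSMUSG00000045903, chromosome 19, 4984355 to 4990316), a neuron-specific factor induced by calcium entry, had 26.7, 35.0 and 45.2 CPM in Q140 x Ccdc82-/-, 18.5, 39.0 and 56.5 CPM in Q140 x Ccdc82+/- and 18.9, 31.6 and 39.2 CPM in Q140, against 32.8, 45.3 and 58.6 CPM in Ccdc82-/-, 29.6, 42.0 and 88.6 CPM in Ccdc82+/- and 35.2, 39.6 and 138.3 CPM in WT. In Q140 mice 5 of 8 values lay below the lowest WT value, and the other 3 lay among the WT values.

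Nr4a1 (ENSMUSG00000023034, chromosome 15, 101254269 to 101274795), an orphan nuclear receptor that acts as a transcription factor without a known ligand, had 160.9, 180.2 and 256.5 CPM in Q140 x Ccdc82-/-, 71.3, 261.7 and 305.6 CPM in Q140 x Ccdc82+/- and 169.4, 192.6 and 245.5 CPM in Q140, against 132.5, 229.3 and 274.7 CPM in Ccdc82-/-, 161.1, 215.0 and 298.5 CPM in Ccdc82+/- and 156.7, 234.0 and 413.8 CPM in WT. Arc (ENSMUSG00000022602, chromosome 15, 74669083 to 74672570) had 404.5, 478.7 and 569.3 CPM in Q140 x Ccdc82-/-, 124.2, 589.2 and 709.3 CPM in Q140 x Ccdc82+/- and 314.2, 532.0 and 648.2 CPM in Q140, against 281.3, 655.0 and 755.8 CPM in Ccdc82-/-, 410.3, 509.9 and 715.9 CPM in Ccdc82+/- and 307.9, 647.1 and 889.7 CPM in WT. For both genes WT M1 was the highest mouse and Q140 x Ccdc82+/- F1 the lowest. Over all 36 members, every pair of the 6 groups overlapped.

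**Figure D1:**
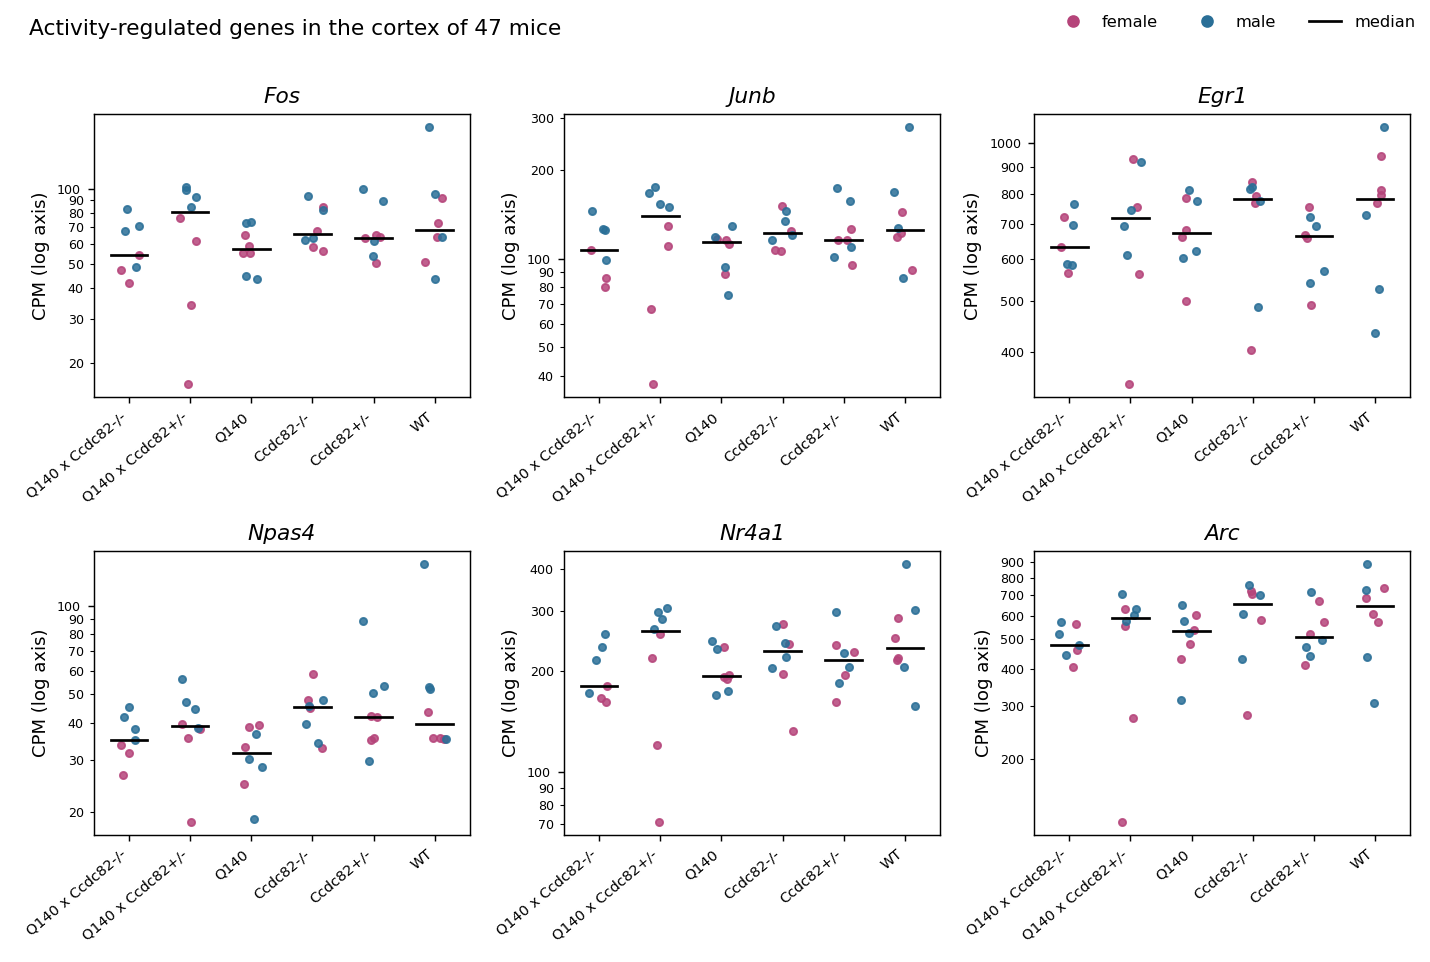
Level of Fos, Junb, Egr1, Npas4, Nr4a1 and Arc in CPM (vertical log axis) in each of 47 mice, by genotype; points are mice, coloured by sex, and the horizontal line is the median of the group. The groups overlap for every gene, and single mice such as WT M1 (Fos at 177.3 CPM) and Q140 x Ccdc82+/- F1 (Fos at 16.5 CPM) lie far from the rest of their group.

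Much of the variation was shared between the members. Across the 47 mice, with the mean of each genotype and sex removed, the median Pearson correlation over the 630 pairs of members was 0.58 (Spearman 0.52), and 379 pairs exceeded 0.5, whereas the median over all pairs of tested genes was -0.001. Without WT M1 and Q140 x Ccdc82+/- F1 the median over the members was 0.46. These correlations are descriptions over mice, some of which share a number in their library names whose meaning the labels do not give. The closest pairs were Junb with Dusp1 (r = 0.97), a phosphatase that inactivates MAP kinases, Fos with Junb (0.97) and Arc with Trib1 (0.97), a pseudokinase. Measured against the mean of the other 35 members, Egr2 (r = 0.96), Egr4 (0.95), Egr1 (0.93), Dusp6 (0.91), an ERK phosphatase, and Fosl2 (0.91) were the most closely coupled. Jun (0.06), Inhba (0.27), Btg2 (0.29), Gadd45g (0.34) and Npas4 (0.47) were the least. Jun, Inhba, Btg2, Gadd45g and Npas4 stood at 0.10, 0.11, -0.12, 0.12 and 0.05 without WT M1 and Q140 x Ccdc82+/- F1, in that order. The genes named as most closely coupled then ran from 0.85 for Fosl2 to 0.95 for Egr2.

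A second pattern set members against each other. The first principal component of the 36 members took 57.6% of the variance and the second 17.6% (49.0% and 23.4% without the 2 mice that stood apart), and the loadings of the second with and without those mice correlated at 0.99 over the 36 members. At one end were Btg2, Ier2, Jun, Dusp1, Junb, Fos and Npas4. At the other were Homer1, Inhba, Ier5, Nptx2, Dusp4, Egr3 and Maff. Homer1 is a scaffold of the postsynaptic density, Nptx2 a secreted protein that clusters AMPA receptors, and Inhba a subunit of activin. The speed of induction was not measured in these mice. The median r was 0.71 within the first 7, 0.77 within the second 7 and 0.03 between them. The lowest pair was Jun with Homer1 (r = -0.51, and -0.57 without the 2 mice). The ends were chosen by these correlations, so the values describe them and test nothing. The counts are per gene and do not separate the short, activity-induced transcript of Homer1 from the long ones.

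**Figure D2:**
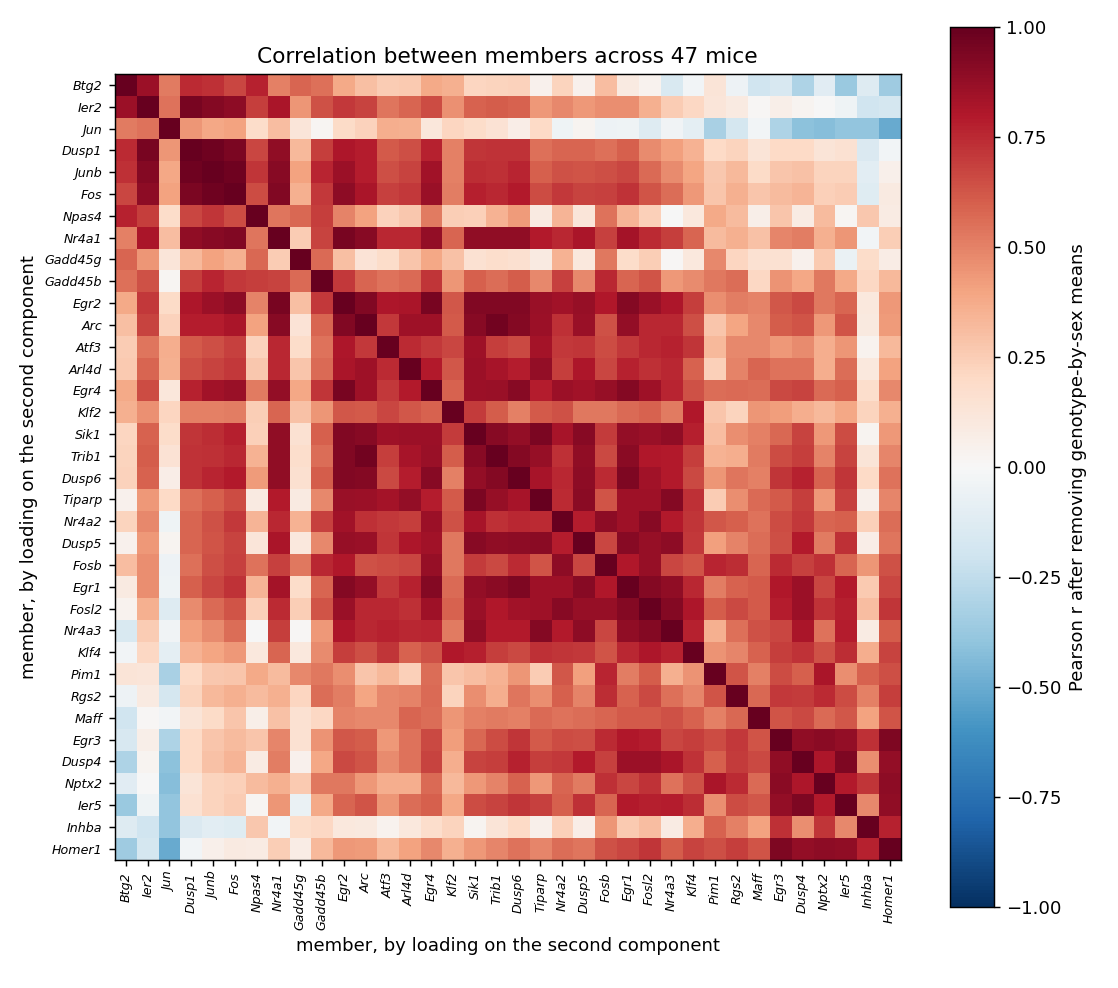
Pearson correlation between each pair of the 36 members over 47 mice after removal of genotype-by-sex means (colour, from -1 to 1), with the members ordered on both axes by their loading on the second principal component. Btg2, Ier2, Jun, Dusp1, Junb, Fos and Npas4 form a block at the top left, and Homer1, Inhba, Ier5, Nptx2, Dusp4 and Egr3 form one at the bottom right, with a median r of 0.03 between the 7 genes at each end.

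The combinations of both patterns differed from mouse to mouse. Relative to their genotype and sex, WT M1 was high at both ends, with mean log2 deviations of 0.88 for the 7 genes from Btg2 to Npas4 and 0.68 for the 7 from Homer1 to Maff, and Q140 x Ccdc82+/- F1 was low at both (-0.82 and -0.32). Ccdc82+/- F1 was high for the first 7 (0.29) and low for the second (-0.43), and Q140 x Ccdc82-/- M4 was low for the first (-0.43) and high for the second (0.54). Opposite signs at the 2 ends were seen in mice of several genotypes, and the plot of members by mouse shows them as columns that change colour from top to bottom.

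**Figure D3:**
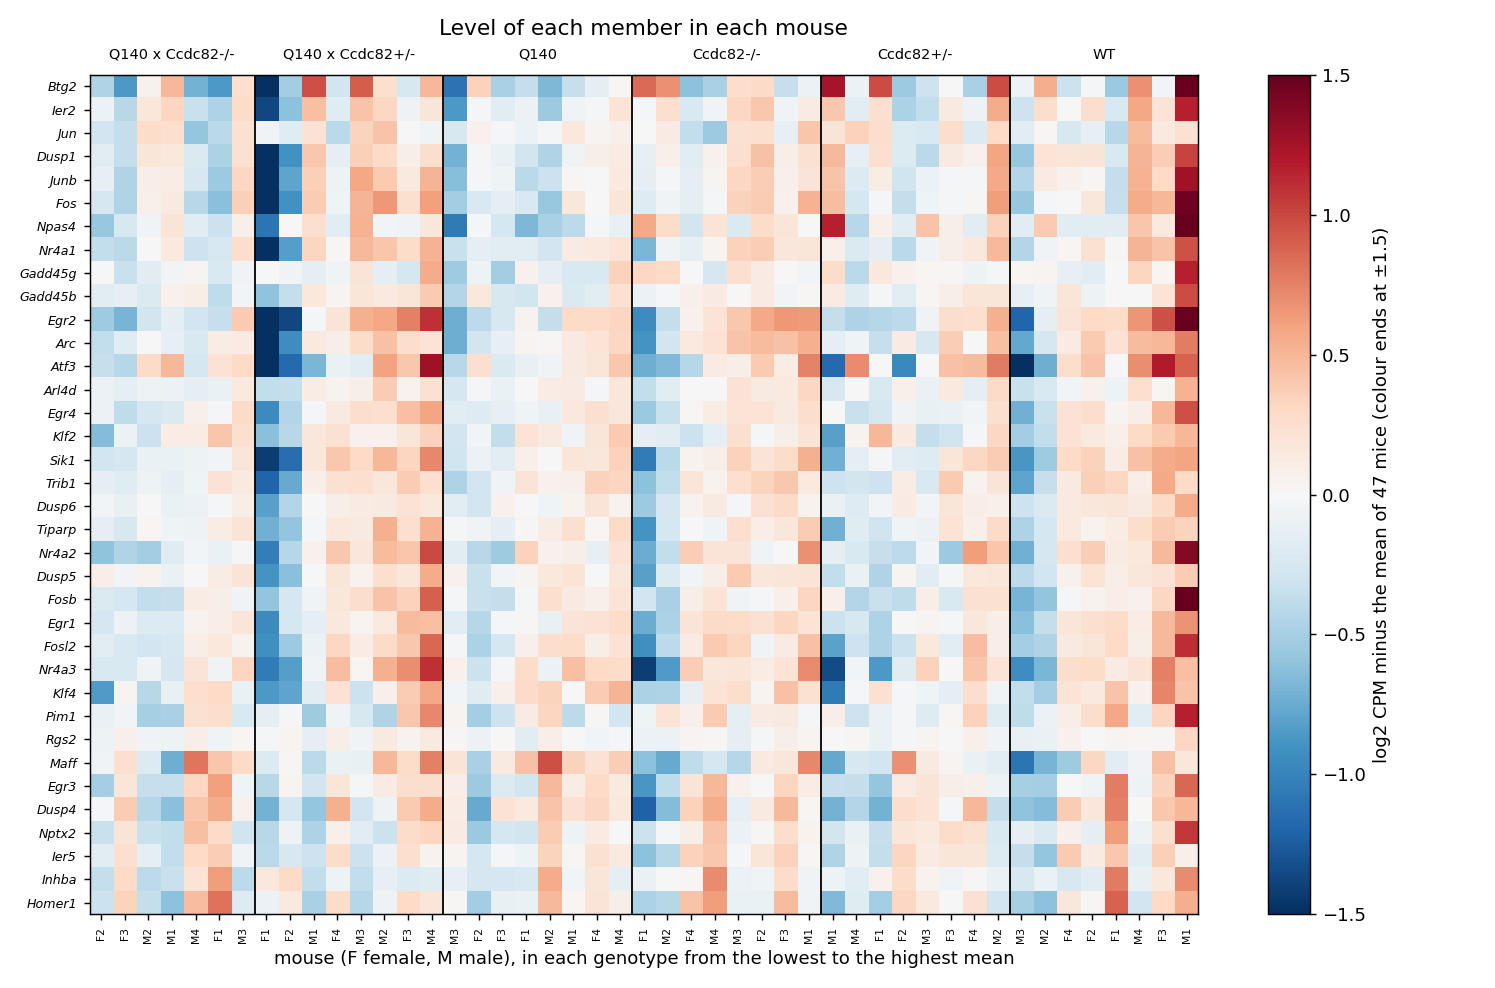
Level of each of 36 members (rows) in each of 47 mice (columns), as log2 CPM minus the mean over all mice (colour, ends at 1.5 in each direction). Columns are grouped by genotype and ordered within it by the mean of the members; rows are ordered by the second component. WT M1, with a mean of 0.86, is red throughout, and Q140 x Ccdc82+/- F1, with -0.90, is blue in nearly every row.

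The allele of Htt was compared with its absence to ask whether activity-regulated transcription differs in this cortex. Averaged over the 3 Ccdc82 backgrounds (23 mice with Q140 and 24 without), 0 of 36 members passed an adjusted p of 0.05 in edgeR's quasi-likelihood test with Benjamini-Hochberg adjustment over all genes, against 168 of 19174 genes (0.876%). DESeq2 called 0 members here and in every other comparison of genotypes. At an unadjusted p under 0.05, 5 members were lower and 1 was higher in mice with Q140, and 4.75% of all genes were lower at that level. The median log2 change of the members was -0.07, with 30 of 36 below 0, against 0.00 over all genes. A member's change had a median SE of 0.11, against 0.03 over all genes, so that changes of this size were within the error of most members. Among cell type markers, 2 of 10 for astrocytes, 1 of 10 for inhibitory neurons and 1 of 6 pan-neuronal were called lower with Q140. In the striatal list 1 of 10 was called higher. Their part in the members' values was not tested. Because the tissue is bulk cortex, fewer cells of a type and less RNA per cell cannot be told apart in any of these comparisons.

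The member with the smallest p was Npas4, which averaged 35.6 ± 8.84 CPM in 23 mice with Q140 and 48.2 ± 22.7 CPM in 24 mice without (SD), a log2 change of -0.44 (SE 0.13, adjusted p = 0.116 in edgeR). Btg2, a regulator of mRNA decay and cell division, averaged 24.95 ± 11.1 CPM with Q140 and 34.7 ± 23.2 CPM without (-0.50, SE 0.19, adjusted p = 0.314 in edgeR). Dusp1 averaged 60.4 ± 16.1 CPM with Q140 and 72.3 ± 18.1 CPM without (-0.27, SE 0.11, adjusted p = 0.39 in edgeR). None of these passed, and the groups overlapped for each. With each mouse left out in turn, Npas4 ran from -0.47 to -0.33, Btg2 from -0.57 to -0.35 and Dusp1 from -0.31 to -0.23. Maff, a small basic leucine zipper factor counted at low depth, was the 1 member that was higher at an unadjusted p under 0.05 (0.30, SE 0.13, adjusted p = 0.417 in edgeR). Without WT M1 and Q140 x Ccdc82+/- F1 the median of the members was -0.01, with 18 of 36 below 0, and without Q140 x Ccdc82+/- F1 alone it was -0.04.

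Q140 mice against WT mice (8 each) gave 0 members called, against 6 genes in all (0.0313%). At an unadjusted p under 0.05, 8 members were lower in Q140 and 0 higher, beside 3.33% of all genes lower at that level. The members' median log2 change was -0.19 with 34 of 36 below 0, against 0.00 over all genes, and their median SE was 0.19. Npas4 changed by -0.72 (SE 0.22, adjusted p = 0.368 in edgeR), Gadd45g, a stress-induced growth regulator, by -0.36 (SE 0.13, adjusted p = 0.559) and Ier2, a nuclear immediate early protein, by -0.45 (SE 0.19, adjusted p = 0.6). These values moved with WT M1. Without it the members' median was -0.07 with 27 of 36 below 0, only 2 members had an unadjusted p under 0.05, 1 in each direction, and Npas4 changed by -0.41 (adjusted p = 0.769), Gadd45g by -0.17 (adjusted p = 0.891) and Ier2 by -0.31 (adjusted p = 0.882). Without WT M3, the WT mouse with the lowest members, the median was -0.29. With the number in the library names as a fixed factor the median was 0.08 with 15 of 36 below 0, and that of the averaged comparison was 0.00 with 18 below 0. This fit compares mice within a number and rests on 23 residual degrees of freedom. WT M1 and WT M3 are each the only mouse with their number, so they add nothing to the genotype changes of this fit. Markers that co-varied with the members overlapped between these groups: summed oligodendrocyte markers (10 of 10 measured) were 2106 to 3080 CPM in Q140 and 1767 to 2787 CPM in WT, and summed choroid plexus markers (4 of 6 measured) 2.41 to 4.67 CPM in Q140 and 2.33 to 6.50 CPM in WT. Hippocampal markers (8 of 8 measured) summed to 151.9 to 178.2 CPM in Q140 and 147.6 to 179.9 CPM in WT. Meningeal fibroblast markers summed to 80.3 to 117.5 CPM in Q140 and 60.4 to 103.2 CPM in WT, with 0 of 8 below 0, a median log2 change of 0.31 and 0 called. Their part in the members' values was not tested.

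By role, the median of Q140 against WT lay below 0 in every class, with 0 members called. The 7 zinc finger and other transcription factors (Egr1 to Egr4, Npas4, Klf2 and Klf4) ran from -0.72 to -0.00 with a median of -0.16. The 3 NR4A receptors had a median of -0.32, and the 7 AP-1 subunits a median of -0.27 with 6 below 0 and Maff above it at 0.42. The 7 phosphatases and kinases of feedback (Dusp1, Dusp4, Dusp5 and Dusp6, which act on MAP kinases, with Sik1, Pim1 and Trib1) had a median of -0.15 and ran from -0.41 to -0.03. The 4 synaptic and secreted effectors had a median of -0.22 with 4 below 0, and the 8 other regulators (Ier2, Ier5, Btg2, Gadd45b, Gadd45g, Tiparp, Rgs2 and Arl4d) a median of -0.17 with 7 below 0. Without WT M1 the class medians were -0.07 for the transcription factors, -0.17 for the NR4A receptors, -0.06 for the AP-1 subunits (4 below 0), -0.08 for the feedback genes, -0.08 for the effectors and -0.07 for the other regulators. With the number in the library names as a fixed factor 4 of the 6 class medians lay above 0, those of the transcription factors (0.06), the NR4A receptors (0.16), the feedback genes (0.11) and the effectors (0.14).

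**Figure D4:**
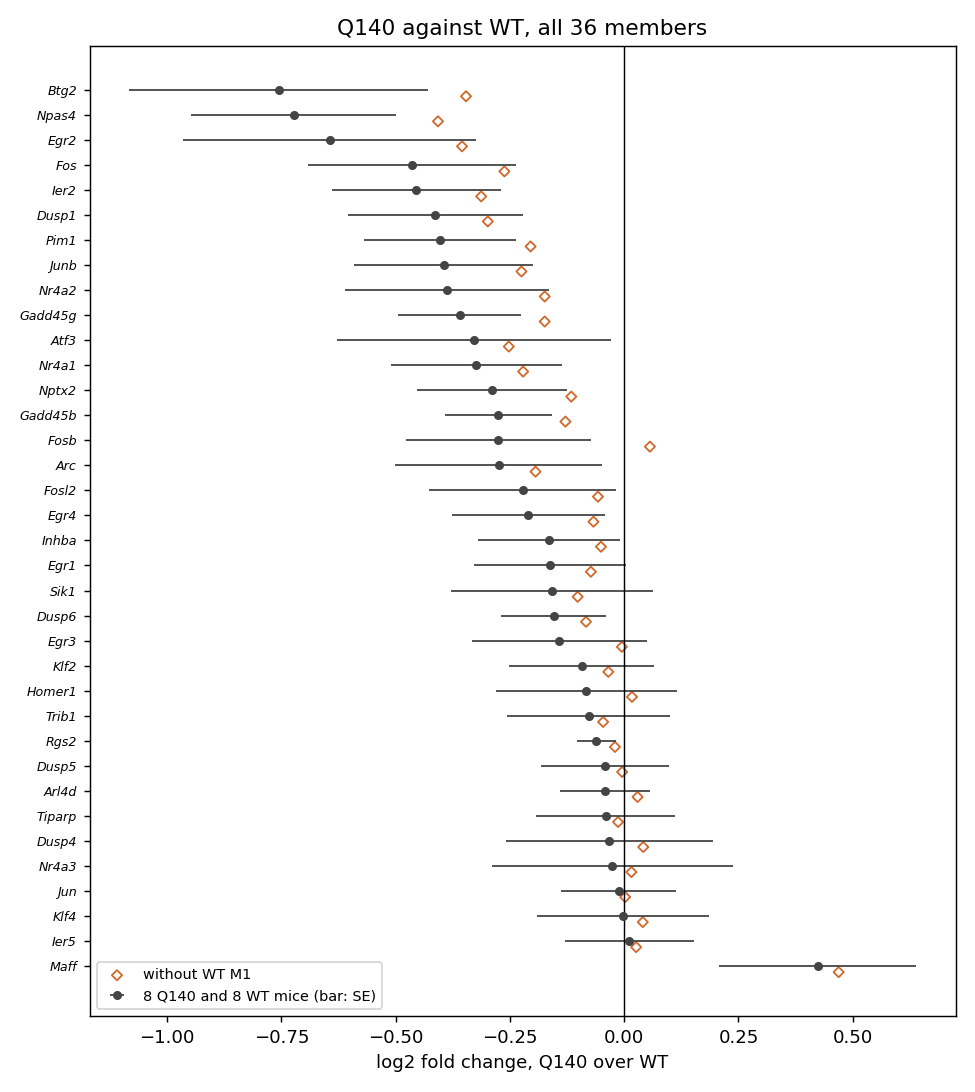
Log2 fold change of each of 36 members in Q140 over WT mice (horizontal axis; filled circles with SE, 8 mice each), with the change after WT M1 is left out (open diamonds). With all mice 34 members lie below 0 at a median of -0.19; without WT M1, 27 do at a median of -0.07.

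On the Ccdc82+/- background the effect of Q140 gave 0 members called (6 genes in all, 0.0313%), with a member median of 0.04 and 12 of 36 below 0. The median was 0.11 with 7 below 0 without Q140 x Ccdc82+/- F1, and -0.01 with 19 below 0 without Q140 x Ccdc82+/- M4. Fosb, an AP-1 subunit, had the smallest p among the members, with 17.98, 31.7 and 50.8 CPM (lowest, median, highest) in Q140 x Ccdc82+/- and 20.0, 25.9 and 31.9 CPM in Ccdc82+/- mice (log2 change 0.28, SE 0.20, adjusted p = 0.999 in edgeR), and without Q140 x Ccdc82+/- M4 its change was 0.16. On the Ccdc82-/- background 0 members were called (4 genes in all, 0.0209%), with a median of -0.13 and 29 of 36 below 0. Gadd45g had the smallest p, with 4.60, 5.58 and 5.99 CPM in Q140 x Ccdc82-/-, against 4.86, 6.07 and 7.17 CPM in Ccdc82-/- (-0.22, SE 0.14, adjusted p = 1 in edgeR). On both backgrounds 0 members had an unadjusted p under 0.05, and the groups overlapped for both genes. With the number in the library names as a fixed factor 1 member, Inhba, was called on the Ccdc82-/- background (-0.47, adjusted p = 0.044 in edgeR), beside 38 of 19174 genes.

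The 7 genes from Btg2 to Npas4 and the 7 from Homer1 to Maff were also read side by side. The correlations that chose them had group means removed, but the ends were chosen after their values were seen. The first 7 hold Npas4, Btg2 and Dusp1, the members already named for the smallest p in the averaged Q140 comparison. The values below therefore describe the ends and test nothing. In the averaged Q140 comparison the first 7 all lay below 0, with a median of -0.26 and a range of -0.50 to -0.07. The second 7 had a median of -0.01 and ran from -0.15 to 0.30. Without the 2 mice that stood apart the medians were -0.16 and 0.04. On the Ccdc82-/- background the medians were -0.23 and -0.01, on the Ccdc82+/- background -0.11 and 0.08, and in Q140 against WT -0.45 and -0.08. Without the 2 mice those on the Ccdc82+/- background were -0.05, with 4 of 7 below 0, and 0.11, and those in Q140 against WT -0.30 and 0.02. No member of either end passed the test in these comparisons, and members of an end vary together, so that they are not independent observations.

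Loss of Ccdc82 was compared with its presence to ask whether the gene affects these levels with or without Q140. Ccdc82-/- against WT gave 0 members called (1 gene in all, 0.00522%), and Ccdc82+/- against WT gave 0 (1 gene, 0.00522%). In both, and in both comparisons with Q140 mice below, 0 members had an unadjusted p under 0.05. The 3 comparisons with WT share the same WT mice. The members' medians were -0.15 for Ccdc82-/- and -0.20 for Ccdc82+/-, with 33 and 34 of 36 below 0; without WT M1 they were -0.01 and -0.10, with 23 and 29 below 0. Fosb had the smallest p in Ccdc82-/- against WT, at 19.5, 27.6 and 34.04 CPM in Ccdc82-/- and 16.7, 28.3 and 82.9 CPM in WT (-0.27, SE 0.20, adjusted p = 0.999 in edgeR), and without WT M1 its change was 0.06. Pim1, a serine/threonine kinase, led in Ccdc82+/- against WT, at 2.79, 3.33 and 4.43 CPM in Ccdc82+/- and 2.67, 3.93 and 7.79 CPM in WT (-0.33, SE 0.17, adjusted p = 0.993 in edgeR); its change was -0.14 without WT M1 and 0.19 with the number in the library names as a fixed factor.

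In mice with Q140, Q140 x Ccdc82-/- against Q140 gave 0 members called (1 gene, 0.00522%; member median -0.04), and Q140 x Ccdc82+/- against Q140 gave 0 (1 gene, 0.00522%; member median 0.05). These medians were unstable. For Q140 x Ccdc82+/- against Q140 the median was 0.14 without Q140 x Ccdc82+/- F1 and -0.03 without Q140 x Ccdc82+/- M4. Without both mice that stood apart it was 0.14 with 4 members higher at an unadjusted p under 0.05, beside 501 of 19151 genes. For Q140 x Ccdc82-/- against Q140 the median ran from -0.09 without Q140 x Ccdc82-/- M3 to -0.01 without Q140 F4. With the number in the library names as a fixed factor it was -0.27, with 13 members at an unadjusted p under 0.05, beside 3046 of 19174 genes. That fit called Inhba (-0.42, adjusted p = 0.0467 in edgeR), beside 187 genes in all. Klf4, a zinc finger factor, led the first with 4.97, 8.38 and 11.1 CPM in Q140 x Ccdc82-/- and 7.94, 10.2 and 12.8 CPM in Q140 (-0.27, SE 0.20, adjusted p = 0.997 in edgeR), and without Q140 x Ccdc82-/- F2 its change was -0.16. Npas4 led the second (0.31, SE 0.22, adjusted p = 0.959 in edgeR). Whether the effect of Q140 differed by Ccdc82 genotype was tested as an interaction: 0 members and 0 genes (0%) passed for Ccdc82-/-, where 567 genes had an unadjusted p under 0.05, and 0 members and 0 genes (0%) for Ccdc82+/-, where 674 did; DESeq2 called 0 genes in both. At an unadjusted p under 0.05 stood 0 members for Ccdc82-/- and 1 for Ccdc82+/-, which was higher. The member medians were 0.10 for Ccdc82-/- and 0.25 for Ccdc82+/-; without WT M1 they were -0.03 and 0.13. With the number as a fixed factor 96 genes passed for Ccdc82-/-, Inhba among them (-0.64, adjusted p = 0.0406 in edgeR). In that fit 10 members had an unadjusted p under 0.05, beside 2859 of 19174 genes, and the member median was -0.17. For Ccdc82+/- 0 passed and the median was 0.03. The leading members were Npas4 for Ccdc82-/- (0.38, SE 0.32, adjusted p = 1 in edgeR), whose value was 0.08 without WT M1, and Nr4a2, an orphan nuclear receptor, for Ccdc82+/- (0.64, SE 0.32, adjusted p = 1 in edgeR), whose value was 0.01 with the number as a fixed factor.

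The comparison of the sexes was the 1 comparison with members called. In the 23 females against the 24 males, 4 of 36 members were called, and all were lower in females: Jun, Btg2, Junb and Fos. Of all 19174 genes 2018 (10.5%) were called in either direction, a share near that of the members, and 1008 (5.26%) were lower in females. At an unadjusted p under 0.05, 10 members were lower and 1 was higher, beside 12.8% of all genes lower at that level. The member median was -0.12 with 26 of 36 below 0, and -0.04 with 22 below 0 without the 2 mice that stood apart.

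Fos had 16.5, 59.0 and 91.5 CPM (lowest, median, highest) in females and 43.5, 73.1 and 177.3 CPM in males, a log2 difference of -0.40 (SE 0.13, adjusted p = 0.0451 in edgeR). Junb had 37.4, 111.9 and 151.1 CPM in females and 75.0, 128.1 and 280.9 CPM in males (-0.35, SE 0.12, adjusted p = 0.0449 in edgeR). Both overlapped between the sexes. Jun (ENSMUSG00000052684, chromosome 4, 95049034 to 95052222), the AP-1 subunit least coupled to the others, had 29.1, 35.5 and 46.6 CPM in females and 25.9, 44.5 and 53.9 CPM in males (-0.22, SE 0.07, adjusted p = 0.0429 in edgeR). Btg2 (ENSMUSG00000020423, chromosome 1, 134075170 to 134079120) had 8.98, 20.8 and 52.0 CPM in females and 12.3, 31.4 and 125.7 CPM in males (-0.59, SE 0.19, adjusted p = 0.0432 in edgeR). With each mouse left out in turn, Fos ran from -0.44 to -0.33, Junb from -0.38 to -0.29, Jun from -0.25 to -0.21 and Btg2 from -0.66 to -0.46. Without WT M1 Btg2 stood at -0.46. All 4 genes are among the 7 at the same end of the second component. Members of an end vary together and are not independent observations, so the values of that end restate these calls in part. At that end each of the 7 differences lay below 0, with a median of -0.32 and a range of -0.59 to -0.22, while the 7 of the other end had a median of 0.09 and reached 0.22, with 1 of 7 below 0; without the 2 mice that stood apart the medians were -0.22 and 0.12.

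The sex calls were close to the threshold. Leaving out 1 mouse at a time gave 0 to 5 members called, and 0 in 16 of 47 fits, those without Ccdc82-/- F4, Ccdc82+/- F2, M1 or M2, Q140 x Ccdc82-/- F1, F3, M1, M2 or M3, Q140 x Ccdc82+/- F2, F4, M1 or M3, or WT F1, F4 or M4; the 4 genes stayed lower in females in each fit. Of all genes, 1618 to 2491 were called in these fits. Without WT M1 and Q140 x Ccdc82+/- F1 together 0 members were called (adjusted p from 0.0575 to 0.099 in edgeR for the 4 genes), beside 2138 of 19151 genes. DESeq2 called 6 members, the 4 and Ier2 and Nr4a1, beside 2368 of 19174 genes. The names of the libraries hold a number that the labels do not explain. Each of its 19 values held mice of 1 sex, so that sex and this number cannot be told apart in full. With the number as a random block in limma 0 members were called (adjusted p from 0.0899 to 0.144 for the 4 genes), beside 851 of 19174 genes. The 5 red blood cell genes summed to 0.158 to 35.5 CPM (median 8.70) in females and 0.148 to 31.2 CPM (median 12.3) in males, with 5 of 5 below 0 and 0 called. Inhibitory neuron markers had 3 of 10 called lower in females and endothelial and mural markers 2 of 10 called higher; 1 marker each was called higher in the astrocyte, oligodendrocyte, hippocampal and pan-neuronal lists and 1 lower in the striatal list. All 8 meningeal fibroblast markers lay above 0 (median 0.16, 0 called), with sums of 60.9 to 117.5 CPM in females and 42.9 to 106.1 CPM in males. The part of these cell types in the members' difference was not tested. Whether the averaged Q140 effect differed between the sexes was tested as well: 0 members and 0 genes (0%) passed, 769 genes had an unadjusted p under 0.05, DESeq2 called 0 genes, and the leading member was Trib1 (-0.38, SE 0.21, adjusted p = 1 in edgeR).

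**Figure D5:**
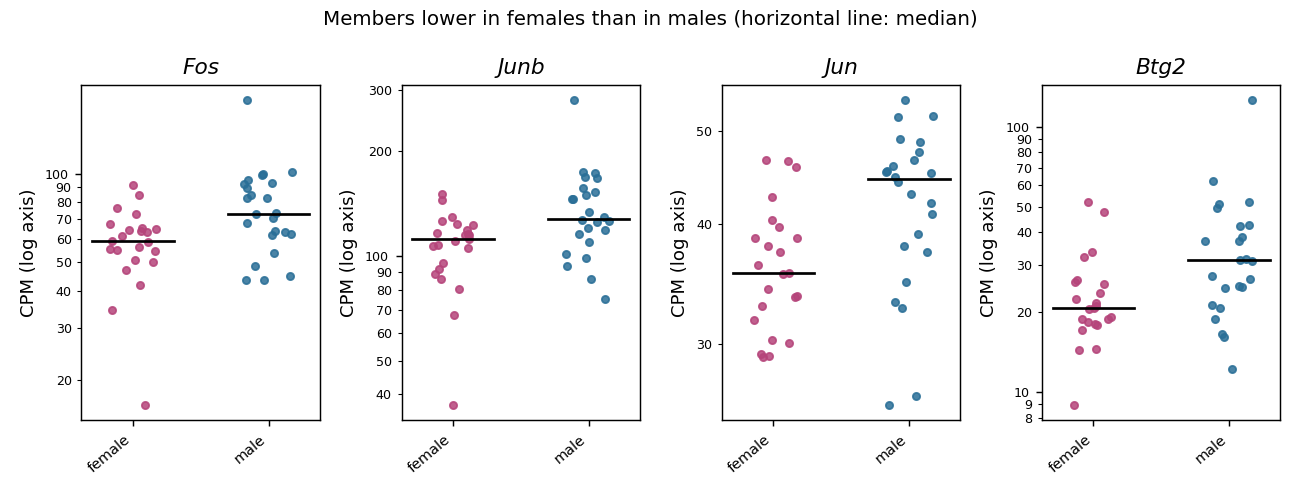
Level of Fos, Junb, Jun and Btg2 in CPM (vertical log axis) in 23 females and 24 males; points are mice and the horizontal line is the median. The medians are lower in females (59.0 against 73.1 CPM for Fos), and the sexes overlap for each gene.

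The genes that carry the signal to these members were listed with them: 35 signalling genes and transcription factors upstream, all tested, and 32 other activity-induced genes, of which 31 were tested. Both lists were chosen with earlier results of these data known, so their counts beside the share of all genes describe them and test nothing. In the averaged Q140 comparison 1 upstream gene rose and 2 fell, beside 0.876% of all genes called. Mapk3, the kinase ERK1, was higher by 0.09 (SE 0.02, adjusted p = 0.0395 in edgeR) in mice with Q140, and Camk2a, the alpha subunit of CaMKII, and Camkk2, an activator of CaM kinases, were lower by log2 changes of -0.08 (SE 0.01, adjusted p = 0.000378) and -0.10 (SE 0.01, adjusted p = 2.68e-06). Of the other activity-induced genes 0 rose and 2 fell, Nrn1, which encodes neuritin (-0.09, SE 0.02, adjusted p = 0.0364), and Lingo1 (-0.14, SE 0.04, adjusted p = 0.0392). On the Ccdc82+/- background Camkk2 fell too (-0.12, SE 0.02, adjusted p = 0.0138). These changes, of 0.08 to 0.14 in size, are near the median SE of the members, 0.11, and were called on SEs of 0.01 to 0.04. In females against males, 2 upstream genes rose and 3 fell, beside 10.5% of all genes called, a share near that of the list, with Hdac5 at 0.08, Rps6ka3 at 0.09, Rps6ka5 at -0.17, Crtc2 at -0.08 and Mapk3 at -0.12; Rps6ka5 and Rps6ka3 encode kinases downstream of ERK, and Crtc2 a coactivator of CREB. Of the other activity-induced genes 0 passed. Srf, the factor that binds the CArG box, passed in none of these 3 comparisons.

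Outside the members, the 15 genes with the profile most like theirs were found by the correlation with the mean of the standardised members over the 47 mice, group means removed. They were 1700016P03Rik (r = 0.89), Arid5a (0.88), Sertad1 (0.88), Fam46a (0.87), Spry2 (0.85), Srf (0.85), Plk2 (0.84), Usp27x (0.84), Syt4 (0.84), Bag2 (0.83), Ttpal (0.83), Midn (0.83), Lonrf1 (0.83), Nectin2 (0.82) and Grasp (0.82). Spry2, a brake on ERK signalling, Plk2, a kinase of active synapses, and Syt4, a vesicle protein, are in the list of other activity-induced genes, and Srf is in the upstream list. Of 19138 genes outside the members 22 had r above 0.8, and the median r over all of them was -0.0037. Without the 2 mice that stood apart the 15 values ran from 0.71 for Grasp to 0.87 for Sertad1. The summed level of the 31 other activity-induced genes correlated with the members at r = 0.75 (0.67 without the 2 mice), and that of the 35 upstream genes at 0.06.

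Measures of the libraries were set beside the members' mean in the same way. It correlated at 0.01 with the library total and at -0.06 with the share of mitochondrially encoded counts. Summed markers correlated at -0.50 for oligodendrocytes (10 of 10 measured; 1767 to 3080 CPM), 0.54 for choroid plexus (4 of 6; 2.06 to 6.50 CPM, with Otx2 at 0 counts in the lowest library) and 0.48 for hippocampus (8 of 8; 141.5 to 179.9 CPM). Without the 2 mice that stood apart these were -0.35, 0.40 and 0.28. Pan-neuronal markers stood at -0.39, and excitatory, inhibitory, microglial, endothelial and mural, striatal and thalamic markers between -0.23 and 0.10; astrocyte and meningeal fibroblast markers stood at 0.28 each, and red blood cell genes at -0.20. Markers of cortical excitatory neurons were high in all groups, with sums of 1915 to 2183 CPM. Whether the makeup of the dissected tissue has a part in the variation of the members was not tested.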

How the data were processed

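RNA of 47 cortices was extracted with RNeasy and sequenced from stranded TruSeq libraries, per the labels' protocols. The authors deposited raw counts per gene and FPKM values per gene for 48795 genes; STAR 2.7.5c, SAMtools 1.10, HTSeq 0.12.3 and GRCm38 (mm10) are named in the submitters' processing notes. The deposited counts were tested with edgeR 4.0.16 (R 4.3.3): filterByExpr (minimum count 10, minimum total 15) left 19174 genes, scaled by TMM and fitted with a robust quasi-likelihood model of 6 genotype means and sex, with genotype-by-sex means where the Q140 effect was compared between sexes. P-values were adjusted by Benjamini-Hochberg over all 19174 genes, with a threshold of 0.05. Levels within a gene are CPM (log2 with a prior count of 2), and levels between genes are the authors' FPKM.

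DESeq2 1.42.0, RLE scaling, no filter, no sex term, only the groups compared, the replicate numbers as a block, plate column, the number in the library names as random block in limma 3.58.1 (genotypes) and leaving out each mouse were tried. Chosen after seeing the data were that random block for the sexes, the same number as a fixed factor, and leaving out both mice that stood apart. The fits were tested on simulated data. The members and lists were chosen with earlier results of these data known. Named in each comparison are the members past the threshold and the 3 members with the smallest p (averaged Q140, Q140 against WT, sexes) or 1 (others), with levels of Fos, Egr1, Arc, Npas4, Nr4a1 and Junb, the 15 most similar other genes, and the genes of the 2 pathway lists that passed; Maff and the ends of the second component were chosen after their values were seen. Gene coordinates are those of GENCODE M21 (GRCm38), which held all 36 members. The labels do not say how mice relate to litters. The p-values set a difference against the spread between these samples, and those of the main fit take no account of litters. Total counts per library had a median of 50473683.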

Additional observations from a re-analysis of the deposited data

Results flagged for a closer look

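In 17 measures over the 6 genotypes, 102 groups were screened for a single mouse far from the others, and 7 (6.86%) held one; chance flags about 1 in 20 groups. WT M1 was flagged by this screen as far above the other WT mice for 4 genes: Npas4 at 138.3 CPM (next 52.8 CPM), Btg2 at 125.7 CPM (next 42.3 CPM), Gadd45g at 13.0 CPM (next 7.26 CPM) and Fosb at 82.9 CPM (next 33.6 CPM). The lowest mouse stood apart for 3 genes: Npas4 in Q140 x Ccdc82+/- F1 at 18.5 CPM (next 35.4 CPM), Nr4a1 in Ccdc82-/- F1 at 132.5 CPM (next 195.9 CPM) and Klf4 in Ccdc82+/- M1 at 4.32 CPM (next 8.21 CPM).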

How the results depend on the processing

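The count of 0 members called stayed 0 in every comparison of genotypes under DESeq2, RLE scaling, no filter, no sex term, only the groups compared, plate column, a random block for the number in the library names, and each mouse left out, where these were run. It also stayed 0 with the replicate numbers as a block; the mean correlation of same-numbered mice lay between -0.0047 and 0.029, so the numbers were not taken to pair mice. With the library-name number as a fixed factor 1 member, Inhba, was called in Q140 x Ccdc82-/- against Ccdc82-/-, in Q140 x Ccdc82-/- against Q140 and in the interaction with Ccdc82-/-. This fit called 38, 187 and 96 of 19174 genes in these comparisons, in that order. The cause was not tested. The female against male count of 4 was 0 without the filter (adjusted p from 0.0751 to 0.0781 in edgeR). It was 0 with the number as a random block, 0 without both mice that stood apart, and 0 to 5 with each mouse left out. The directions held. Over all genes these fits called 1467 of 33979, 851 of 19174, 2138 of 19151 and 1618 to 2491 genes, in that order. Fosb in Ccdc82-/- against WT (-0.27) was 0.046 with the number as a fixed factor, 0.060 without both mice and 0.055 without WT M1, and ran from -0.38 to 0.055 with each mouse left out. Pim1 in Ccdc82+/- against WT was 0.19 with the number as a fixed factor. That fit takes no genotype change from WT M1, the only mouse with its number. The causes were not tested. Bulk tissue, a single age and a median member SE of 0.19 between 2 genotypes limit what could be detected.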

Other observations

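Mice of 1 sex were compared by the number in their library names, on the mean log2 level of the members with genotype-by-sex means removed. Mice with the same number differed by a median of 0.23 over 45 pairs, and mice with different numbers by 0.22 over 484 pairs. In the score of the second component these pairs differed by medians of 0.11 and 0.15. Between mice of 1 sex and different genotypes, the mean correlation over all tested genes was 0.043 for the same number (38 pairs). It was -0.0038 for different numbers (422 pairs). The mean of the members was -0.15 in plate column 2 and 0.13 in plate column 3 (8 mice each), the column that holds WT M1.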
